A study of Mus musculus with 7 samples.

Results

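The miR-99 and miR-125 families were followed through mmu-miR-99a-5p, mmu-miR-99b-5p, mmu-miR-100-5p, mmu-miR-125a-5p and mmu-miR-125b-5p, where mmu marks the mouse and 5p the strands of their hairpins that are usually loaded into Argonaute. These 5 members were taken by name from the 1978 mature microRNAs (miRNAs) listed, and values on several lines were summed per name. Small RNAs had been sequenced from CD8+ T cells sorted to over 95% purity from the spleens of gBT-I mice, a line whose T cells carry a transgenic receptor for a herpes simplex virus epitope. The groups were neonatal VM (2 libraries), neonatal TN (1 library), adult VM (2) and adult TN (2). VM (virtual memory) cells were CD44hi CD122hi and carry memory markers without having met antigen, and TN (true naive) cells were CD44lo CD122lo. All groups shared the receptor transgene, the spleen as source and the same sort, and the labels give neither the ages in days nor whether replicates came from separate animals. The p-values then cover only the differences among these libraries, possibly technical, and the lone neonatal TN value carries no SD.

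The families are encoded together. In mammals a miR-99 type gene, a let-7 gene and a miR-125 type gene lie side by side in 3 related clusters, and miR-125 is the relative of lin-4, the first miRNA found in the worm Caenorhabditis elegans. MiR-99 family miRNAs are known to repress the growth regulators mTOR and IGF1R. MiR-125b is known to sustain haematopoietic stem and progenitor cells, and in human naive CD4+ T cells it represses genes of effector differentiation. MiR-125a has been linked to the stability of mouse regulatory T cells.

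The mature sequences, from RefSeq on GRCm38.p6, show how the members group. They are printed 5′ to 3′ with the seed (bases 2 to 8, the part that pairs first with a target) in capitals. The first 3 carry the miR-99 seed. The next 2 and miR-351-5p, which belongs to neither family by name, carry the miR-125 seed. Let-7e-5p is the let-7 partner of miR-99b-5p and miR-125a-5p.
miR-99a-5p: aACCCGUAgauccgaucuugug
miR-99b-5p: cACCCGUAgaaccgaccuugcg
miR-100-5p: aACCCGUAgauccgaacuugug
miR-125a-5p: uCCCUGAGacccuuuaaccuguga
miR-125b-5p: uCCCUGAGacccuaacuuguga
miR-351-5p: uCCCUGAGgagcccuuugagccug
let-7e-5p: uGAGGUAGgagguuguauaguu

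Counting positions from 1 at the 5′ end, miR-99a-5p and miR-100-5p differ at 1 base (U16A, the first base that of miR-99a-5p). MiR-99b-5p differs from miR-99a-5p at 4 bases (A1C, U11A, U16C and U21C). MiR-125a-5p and miR-125b-5p share their first 13 bases and differ in length (24 and 22 bases). MiR-125a-5p and miR-351-5p share their first 8 bases only. None of these differences lies in a seed.

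Of the 3 clusters, the one with miR-99b-5p and miR-125a-5p lies on the plus strand of chromosome 17. Mature miR-99b-5p is at chr17:17830194-17830215, let-7e-5p at chr17:17830366-17830387 and miR-125a-5p at chr17:17830817-17830840. In GENCODE M21 on GRCm38, Mir99b and Mirlet7e lie in introns of Spaca6, a protein-coding gene, Mir125a runs across the edge of a Spaca6 exon, and 554 bases separate Mir99b from Mir125a. MiR-99a-5p (chr16:77598940-77598961, plus strand) and a copy of miR-125b-5p (chr16:77646279-77646300, plus strand) lie in introns of the non-coding gene Mir99ahg. MiR-100-5p (chr9:41531437-41531458, plus strand) and the other copy of miR-125b-5p (chr9:41581940-41581961, plus strand) lie in introns of the non-coding gene 3110039I08Rik.

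Library totals ran from 1577031 to 3278451 counts. Levels are CPM (each count as its part of the library total, on a common scale), scaled by TMM factors, which centre the libraries on each other. A count of 3, taken as the floor, corresponds to 0.915 to 1.90 CPM before that scaling. The T cell miRNAs miR-150-5p and miR-142a-5p stood at 62258 CPM or more and 43348 CPM or more in every library. MiR-150-5p was at 62258 to 77562 CPM in neonatal and 207898 to 435180 CPM in adult libraries. Over all libraries miR-142a-3p was at 3385 to 8427 CPM, miR-181a-5p at 16417 to 171813 CPM and miR-155-5p at 206 to 1117 CPM. These 5 T cell miRNAs summed to 162424 to 171001 CPM in neonatal VM and 282846 CPM in neonatal TN libraries. In adult VM they summed to 339115 to 376853 CPM and in adult TN to 495088 to 586660 CPM. The 10 stromal, endothelial and muscle markers summed to 126 to 155 CPM in neonatal and 23.7 to 76.4 CPM in adult libraries. Of these 10, miR-143-3p was at 31.6 to 67.2 CPM in neonatal and 4.32 to 25.9 CPM in adult libraries. MiR-126a-5p was at 38.6 to 60.6 CPM in neonatal and 3.24 to 22.5 CPM in adult libraries. MiR-10b-5p overlapped, at 12.8 to 35.6 CPM in neonatal and 8.86 to 21.4 CPM in adult libraries. MiR-214-3p and miR-1a-3p had no count in any library. The hepatocyte miR-122-5p reached 1.08 CPM in 1 library only. Within a bulk library, fewer cells of a type and less RNA per cell cannot be told apart.

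The chromosome 17 cluster supplied nearly all the family counts. The 7 libraries together held 1230 counts of miR-99b-5p and 2102 of miR-125a-5p, against 4 of miR-99a-5p, 9 of miR-100-5p and 19 of miR-125b-5p. A minimum of 10 CPM in 2 libraries or more left 288 miRNAs for testing. Among them miR-125a-5p ranked 128 and miR-99b-5p ranked 150 by mean level, so both sat in the middle of the range. These 2 of the 5 members could be tested. MiR-99b-5p made up 98.4% to 99.7% of the miR-99 seed counts in every library (95% Wilson intervals between 91.8% and 99.9%, for counting error alone, as the reads carried no molecular identifiers and may be PCR copies).

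The members from chromosomes 9 and 16 were at or near the floor in every group. MiR-100-5p had 1 and 3 counts in neonatal VM, 3 in neonatal TN, 1 and 0 in adult VM and 0 and 1 in adult TN libraries. MiR-99a-5p had 0 and 1 counts in neonatal VM, 0 in neonatal TN, 0 and 1 in adult VM and 2 and 0 in adult TN libraries. MiR-125b-5p, whose reads the deposited table splits equally between its 2 hairpins, had 3 and 1 counts in neonatal VM, 5 in neonatal TN, 1 and 2 in adult VM and 1 and 6 in adult TN libraries. No difference between groups was detectable for these 3 at this depth. Their let-7 neighbours do not report on these hairpins, because mature let-7c-5p and let-7a-5p also come from hairpins elsewhere. The opposite arms miR-99a-3p, miR-100-3p and miR-125b-1-3p had no count, and miR-125b-2-3p had 15 in all, of which 9 were in the neonatal TN library.

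**Figure D1:**
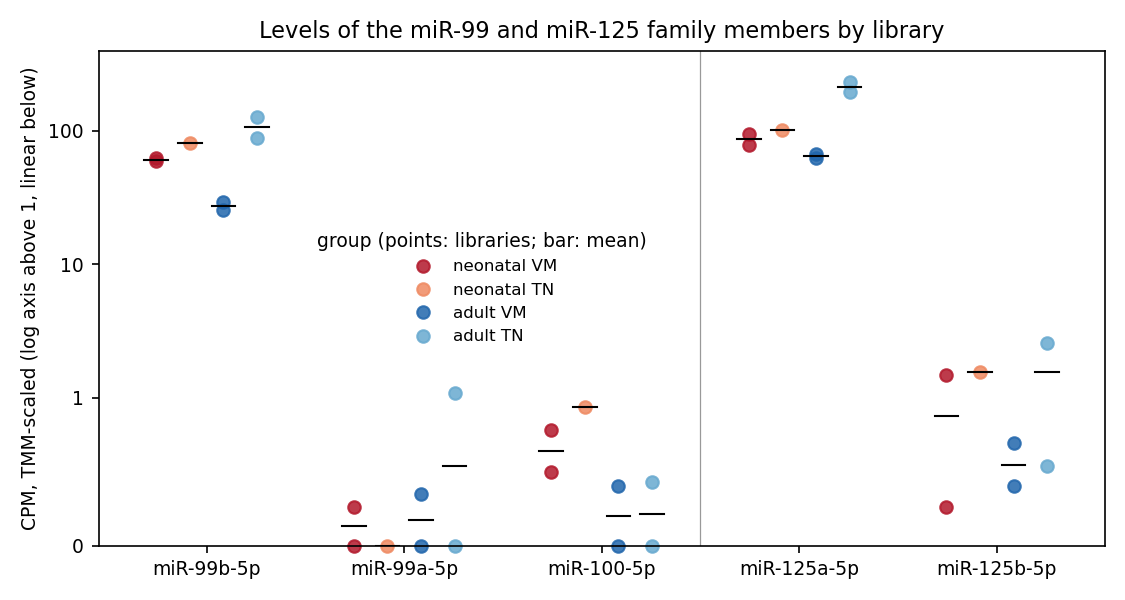
TMM-scaled CPM of the 5 members (log axis above 1, linear below), with a point for each library, coloured by group, and a bar at the group mean. MiR-99b-5p and miR-125a-5p lie between 25.8 and 232 CPM in all libraries, and the other 3 members stay at or below 2.57 CPM.

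In adult cells, both expressed members were lower in VM than in TN cells. MiR-99b-5p stood at 25.8 and 29.4 CPM in adult VM, against 89.0 and 127 CPM in adult TN libraries (27.6 ± 2.56 and 108 ± 26.9, mean ± SD, n = 2 each). MiR-125a-5p stood at 67.6 and 62.2 CPM in adult VM, against 196 and 232 CPM in adult TN libraries (64.9 ± 3.82 and 214 ± 25.8, n = 2 each). For each of them both VM libraries lay below both TN libraries, with a gap wider than the distance between replicates. How many of all tested miRNAs separate in this way was not counted, so the separation is a description only. MiR-99b-5p fell 3.92-fold (log2 change -1.97, SE 0.29, Benjamini-Hochberg adjusted p = 3.35e-04 by the quasi-likelihood test of edgeR). MiR-125a-5p fell 3.3-fold (log2 change -1.72, SE 0.24, adjusted p = 2.52e-04 by edgeR). In this comparison 38.9% of the 288 tested miRNAs passed, 15.6% as lower and 23.3% as higher in VM, and the median of all tested miRNAs was 0.09 on the log2 scale. Both falls passed in each of 7 other settings and with each of the 7 libraries left out in turn, with an adjusted p of at most 0.0188.

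Let-7e-5p, which lies between them, moved the same way. It stood at 20.5 and 21.8 CPM in adult VM, against 48.0 and 42.8 CPM in adult TN libraries (log2 change -1.10, SE 0.30, adjusted p = 0.0133 by edgeR). Without adult TN replicate 1 or 2 its adjusted p was 0.0663 and 0.0654. Let-7 members differ at few bases and the table holds fractional values for let-7e-5p, so its split from the other let-7 counts is uncertain. Of the other 8 let-7 family guide arms measured, 3 rose in adult VM cells, let-7g-5p (log2 change 1.05), let-7i-5p (0.84) and miR-98-5p (1.61), and 2 fell, let-7b-5p (-0.86) and let-7c-5p (-0.68). The remaining 3, let-7a-5p, let-7d-5p and let-7f-5p, did not pass. Let-7 guide arms, which repress growth and cell cycle genes, thus went both ways, and the median log2 change of all 9 was 0.45.

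Some markers of other cells differed between the adult subsets too. The summed level of the 10 stromal, endothelial and muscle markers was 49.1 to 76.4 CPM in adult VM and 23.7 to 39.4 CPM in adult TN libraries, opposite in direction to the members. The progenitor markers miR-10a-5p and miR-196b-5p summed to 136 to 166 CPM in adult VM and 66.9 to 122 CPM in adult TN libraries. MiR-10a-5p held nearly all of that sum, with miR-196b-5p at most 0.428 CPM in these libraries. The 3 erythroid markers summed to 250 to 297 CPM in adult VM and 123 to 164 CPM in adult TN libraries. MiR-486a-5p held nearly all of that sum, at 246 and 294 CPM in adult VM and 121 and 162 CPM in adult TN. MiR-451a was at 2.42 and 3.11 CPM in adult VM and 2.16 and 2.14 CPM in adult TN libraries. MiR-144-3p reached at most 1.21 CPM in any library. The myeloid miR-223-3p was at 5.64 to 15.6 CPM in adult VM and 1.71 to 2.16 CPM in adult TN libraries. The part of these markers in the fall of the members was not tested.

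In neonatal cells the subsets lay closer together. MiR-99b-5p stood at 59.3 and 62.4 CPM in neonatal VM libraries (60.9 ± 2.20, n = 2), against 80.9 CPM in the neonatal TN library. MiR-125a-5p stood at 78.6 and 94.8 CPM in neonatal VM libraries (86.7 ± 11.5, n = 2), against 101 CPM in the neonatal TN library. For both, the lone TN library lay above both VM libraries, for miR-125a-5p by less than the VM replicates lay apart. Neither difference passed. The log2 change was -0.41 for miR-99b-5p (95% interval -1.12 to 0.31, adjusted p = 0.51 by edgeR) and -0.22 for miR-125a-5p (95% interval -0.84 to 0.40, adjusted p = 0.705 by edgeR). In this comparison 9.72% of tested miRNAs passed, 3.12% as higher and 6.6% as lower in VM. Of the 9 let-7 guide arms, let-7b-5p (-1.57) and let-7c-5p (-1.07) fell in neonatal VM cells, none rose and 7 did not pass. The sign for miR-125a-5p turned under library totals (0.022) and upper quartile factors (0.15). The 1 neonatal TN library was assumed to vary like the other groups in every comparison that uses it.

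The difference between the 2 subset contrasts was tested directly as an interaction of age and subset, which 7.99% of tested miRNAs passed, 1.74% with a positive difference, like the members, and 6.25% with a negative one. For miR-125a-5p the contrast in neonatal cells exceeded that in adult cells by 1.5 on the log2 scale (SE 0.38, 95% interval 0.67 to 2.33, adjusted p = 0.0323 by edgeR). For miR-99b-5p the difference was of similar size (1.56, SE 0.44, 95% interval 0.59 to 2.53) and did not pass (edgeR adjusted p = 0.0518). It did pass with RLE factors, library totals, upper quartile factors, no filter, DESeq2 and the largest line per name, at adjusted p values of 0.00910 to 0.0313, and without adult VM replicate 1 (0.0102) or 2 (0.00178). Without each of the other libraries that could be left out it did not (0.0673 to 0.217). Let-7e-5p gave 1.77 (SE 0.48, edgeR adjusted p = 0.0438), with 30.8 to 31.6 CPM in neonatal VM against 19.6 CPM in neonatal TN, the reverse order from adult cells. Among the other let-7 guide arms the difference was negative and passed for let-7g-5p (-1.03) and miR-98-5p (-1.66). With the replicate number added to the model as a block, miR-125a-5p did not pass (1.42, edgeR adjusted p = 0.0582). Under that block let-7e-5p (1.79, edgeR adjusted p = 0.0603) and miR-99b-5p (1.42, edgeR adjusted p = 0.0951) did not pass either. The call for miR-125a-5p was lost without neonatal VM replicate 2 (adjusted p = 0.063) and without adult TN replicate 1 (0.12) or 2 (0.155), with the estimate at 1.45 to 1.70. Let-7e-5p lost its call without neonatal VM replicate 1 (0.09) or 2 (0.0726) and without adult TN replicate 1 (0.14) or 2 (0.108).

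**Figure D2:**
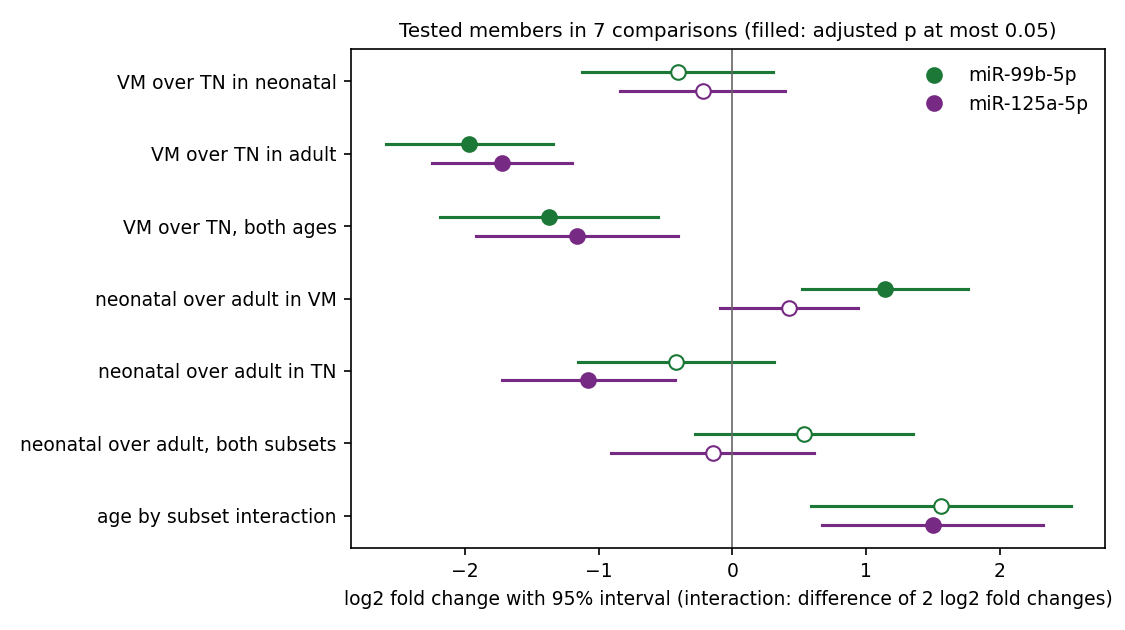
Log2 fold changes of miR-99b-5p and miR-125a-5p with 95% intervals in 7 comparisons, where filled points passed at an adjusted p of at most 0.05. In adult cells both members lie at -1.97 and -1.72 for VM over TN, while the intervals in neonatal cells cross 0.

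Age was compared within each subset. Between VM cells, miR-99b-5p rose 2.21-fold in neonatal cells, with 59.3 and 62.4 CPM in neonatal VM against 25.8 and 29.4 CPM in adult VM libraries (log2 change 1.14, SE 0.28, adjusted p = 0.00495 by edgeR). The groups did not overlap, a description only, as the share of all tested miRNAs without overlap was not counted. In this comparison 53.8% of tested miRNAs passed, 22.9% as higher and 30.9% as lower in neonatal cells. MiR-125a-5p was at 78.6 and 94.8 CPM in neonatal VM against 67.6 and 62.2 CPM in adult VM libraries and did not pass (log2 change 0.42, 95% interval -0.10 to 0.94, adjusted p = 0.15 by edgeR). It did pass under library totals (log2 change 0.93, adjusted p = 0.00587), a scaling that moved the median of all tested miRNAs by 0.51. The rise of miR-99b-5p passed in each of the 7 other settings and with each library left out, at an adjusted p of at most 0.0235. Of the 9 let-7 guide arms, 5 fell in neonatal VM cells, 0 rose and 4 did not pass. Let-7b-5p (log2 change -3.49) and let-7c-5p (-2.45) fell most, and let-7e-5p stood at 0.56 (adjusted p = 0.132).

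Between TN cells miR-125a-5p passed and miR-99b-5p did not. For miR-125a-5p neonatal cells were 2.11-fold lower, at 101 CPM in the neonatal TN library against 196 and 232 CPM in adult TN libraries (log2 change -1.08, SE 0.30, adjusted p = 0.0113 by edgeR). MiR-99b-5p stood at 80.9 CPM in the neonatal TN library, against 89.0 and 127 CPM in adult TN libraries, and did not pass (log2 change -0.42, 95% interval -1.15 to 0.31, adjusted p = 0.326 by edgeR). In this comparison 47.9% of tested miRNAs passed, 21.5% as lower and 26.4% as higher in neonatal cells. The fall of miR-125a-5p missed the threshold under library totals (log2 change -0.71, adjusted p = 0.0599), which moved the median by 0.37, and without adult TN replicate 2 (adjusted p = 0.0522). Let-7e-5p also fell (log2 change -1.21, SE 0.38, adjusted p = 0.0206 by edgeR), though not under library totals (adjusted p = 0.0765) or without adult TN replicate 1 (0.0591). Of the 9 let-7 guide arms 4 fell in neonatal TN cells, let-7b-5p (-2.78) and let-7c-5p (-2.06) among them, and let-7i-5p (0.71) and miR-98-5p (1.20) rose. The 10 stromal, endothelial and muscle markers summed to 155 CPM in neonatal TN and 126 to 136 CPM in neonatal VM, against 23.7 to 39.4 CPM in adult TN and 49.1 to 76.4 CPM in adult VM libraries. The progenitor markers summed to 29.9 CPM in neonatal TN against 66.9 to 122 CPM in adult TN libraries, and to 29.5 to 88.0 CPM in neonatal VM against 136 to 166 CPM in adult VM libraries. MiR-10a-5p held nearly all of these progenitor sums, with miR-196b-5p at most 2.97 CPM in any library. The erythroid markers summed to 230 CPM in neonatal TN against 123 to 164 CPM in adult TN libraries. In neonatal VM they summed to 80.0 to 92.0 CPM, against 250 to 297 CPM in adult VM libraries. MiR-486a-5p held nearly all of these sums. Of the same list, miR-451a was at 9.65 CPM in neonatal TN against 2.16 and 2.14 CPM in adult TN libraries. It was at 5.93 and 2.87 CPM in neonatal VM against 2.42 and 3.11 CPM in adult VM libraries. MiR-223-3p was at 1.56 CPM in neonatal TN against 1.71 to 2.16 CPM in adult TN libraries, and at 0.989 to 3.92 CPM in neonatal VM against 5.64 to 15.6 CPM in adult VM libraries. The part of these markers in the age differences was not tested.

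Both factors were also tested averaged over the other. Over both ages, miR-99b-5p (log2 change -1.37, SE 0.36, adjusted p = 0.0303 by edgeR) and miR-125a-5p (-1.16, SE 0.33, edgeR adjusted p = 0.0364) fell in VM cells, where 24.7% of tested miRNAs passed, 13.9% as lower and 10.8% as higher. Without any 1 of the adult libraries or neonatal VM replicate 2 neither passed (adjusted p from 0.06 to 0.142), and without neonatal VM replicate 1 miR-125a-5p did not (0.0585). Under upper quartile factors neither passed (0.0513 and 0.0764), and under library totals miR-125a-5p did not (0.0634). With the replicate number as a block miR-125a-5p did not pass either (edgeR adjusted p = 0.0531). Without the neonatal TN library, which leaves the adult contrast alone, the values were -1.98 and -1.73. Over both subsets neither passed with age, where 53.8% of tested miRNAs did, 26.4% as higher and 27.4% as lower in neonatal cells. The log2 changes were 0.54 for miR-99b-5p (95% interval -0.28 to 1.35, adjusted p = 0.233 by edgeR) and -0.15 for miR-125a-5p (95% interval -0.91 to 0.61, adjusted p = 0.719 by edgeR). MiR-99b-5p passed with age under library totals (log2 change 1.0, adjusted p = 0.0477) and without the neonatal TN library (1.17, adjusted p = 0.0047).

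Ordered by mean TMM-scaled level, both members ran from adult VM, the lowest, through neonatal VM and neonatal TN to adult TN, the highest. For miR-125a-5p the 2 neonatal groups changed places under library totals (111 CPM in neonatal VM and 109 CPM in neonatal TN), and the fitted sign also turned under upper quartile factors. For miR-99b-5p these signs held, but some steps nearly vanished. Its log2 change of neonatal over adult TN cells was -0.044 under library totals. Its log2 change of VM over TN in neonatal cells was -0.031 under upper quartile factors. Of the neighbours in that order, adult VM and neonatal VM differed past the threshold for miR-99b-5p and not for miR-125a-5p, neonatal VM and neonatal TN for neither, and neonatal TN and adult TN for miR-125a-5p and not for miR-99b-5p. By TMM-scaled level let-7e-5p followed another order, with neonatal TN lowest, then adult VM, neonatal VM and adult TN. Its neonatal TN library (19.6 CPM) lay close to the adult VM libraries (20.5 and 21.8 CPM). By mean count over library total, adult VM was lowest and neonatal VM highest for let-7e-5p, so its order depends on the scaling.

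**Figure D3:**
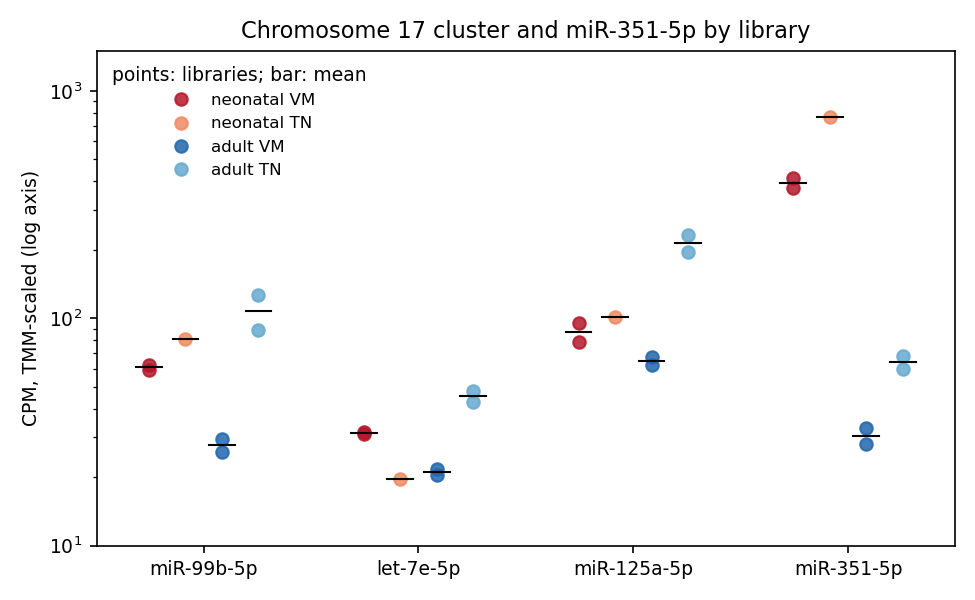
TMM-scaled CPM on a log axis of the 3 chromosome 17 cluster miRNAs and of miR-351-5p, with a point for each library and a bar at the group mean. MiR-99b-5p and miR-125a-5p are lowest in adult VM and highest in adult TN, and let-7e-5p is at 19.6 CPM in neonatal TN. MiR-351-5p is at 372 to 770 CPM in neonatal and 28.0 to 68.5 CPM in adult libraries.

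MiR-99b-5p and miR-125a-5p can also be set against each other within a library, which needs no scaling between libraries. The ratio of miR-99b-5p to miR-125a-5p counts was 0.755 and 0.658 in neonatal VM, 0.798 in neonatal TN, 0.381 and 0.472 in adult VM and 0.455 and 0.547 in adult TN libraries. All 3 neonatal libraries lay above all 4 adult libraries, and therefore also within VM and within TN cells. How many ratios between other tested miRNAs separate in this way was not counted, so the separation is a description only. On the log2 scale the mean ratio was -0.45 in neonatal and -1.12 in adult libraries, a difference of 0.68, or 1.6-fold. A two-sided exact permutation test over the libraries gave p = 0.0571, the smallest value that 3 against 4 libraries allow, and the ratio was chosen after its values were seen. Counts of let-7e-5p over miR-99b-5p were 0.533 and 0.494 in neonatal VM, 0.242 in neonatal TN, 0.797 and 0.741 in adult VM and 0.539 and 0.337 in adult TN libraries. Within each age, both VM libraries thus held more let-7e-5p per miR-99b-5p than any TN library. That pattern is described here without a test and without a count of other ratios that separate likewise.

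**Figure D4:**
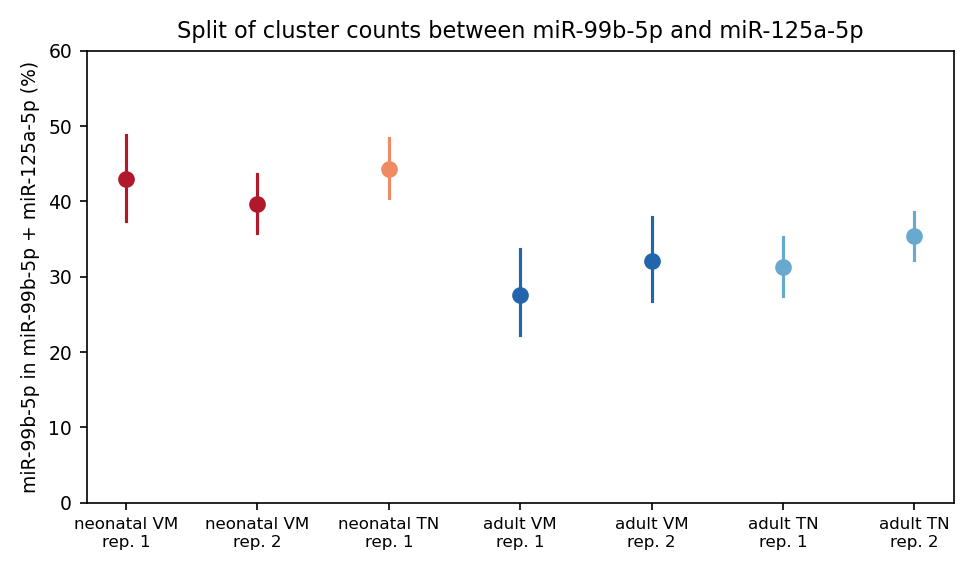
Share of miR-99b-5p in the summed counts of miR-99b-5p and miR-125a-5p in each library, with 95% Wilson intervals that cover counting error only. Neonatal libraries lie between 39.7% and 44.4% and adult libraries between 27.6% and 35.4%.

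The opposite arms of the expressed hairpins were rare. MiR-99b-3p had 13 counts over the 7 libraries and miR-125a-3p had 8, of which 7 fell in neonatal VM replicate 2 and 1 in the neonatal TN library. No opposite arm of a member's hairpin reached the tested set, and 5p counts exceeded 3p counts for both hairpins in every library.

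Beyond the named families, 3 other mature miRNAs in the table carried the miR-125 seed. MiR-6367 and miR-6394 had no count, and miR-351-5p, from an X-linked cluster with miR-322, held 5248 counts. No other miRNA in the table carried the miR-99 seed. MiR-351-5p stood at 372 and 414 CPM in neonatal VM and 770 CPM in neonatal TN, against 33.0 and 28.0 CPM in adult VM and 59.9 and 68.5 CPM in adult TN libraries. It was 12.9-fold higher in neonatal than adult VM cells (log2 change 3.69, SE 0.23, adjusted p = 3.11e-07 by edgeR) and 12.0-fold higher in neonatal than adult TN cells (log2 change 3.58, SE 0.24, adjusted p = 4.78e-07 by edgeR).

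The composition of the miR-125 seed family differed between neonatal and adult libraries, given here as shares without a test. MiR-125a-5p made up 17.4% (95% Wilson interval 15.1% to 20.0%) and 18.6% (17% to 20.4%) of its counts in neonatal VM and 11.6% (10.5% to 12.9%) in neonatal TN libraries. In adult VM libraries its share was 66.9% (60.9% to 72.5%) and 68.4% (62.6% to 73.8%), and in adult TN libraries 76.4% (72.4% to 80.0%) and 76.6% (73.3% to 79.6%). MiR-351-5p made up nearly all the rest, at 81.3% to 88.2% in neonatal and 22.6% to 32.7% in adult libraries, and miR-125b-5p at most 0.846% in any. The summed level of the seed family was 452 and 509 CPM in neonatal VM and 873 CPM in neonatal TN, against 101 and 90.9 CPM in adult VM and 256 and 303 CPM in adult TN libraries. The miR-99 seed, which has no such additional member, summed to 59.8 and 63.5 CPM in neonatal VM and 81.8 CPM in neonatal TN, against 26.2 and 29.7 CPM in adult VM and 90.1 and 128 CPM in adult TN libraries.

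**Figure D5:**
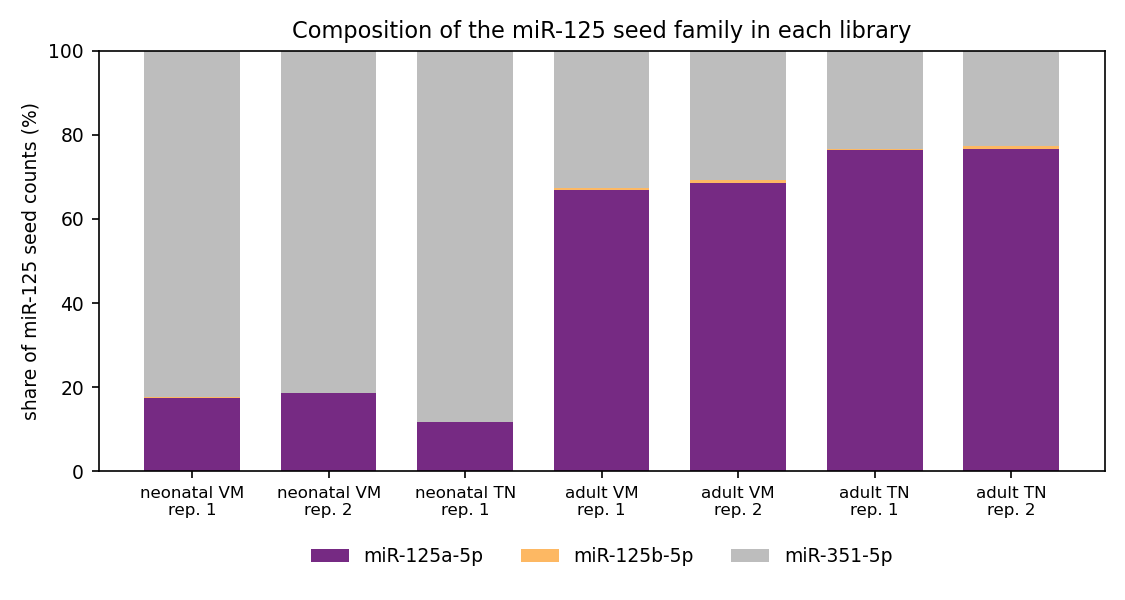
Share of miR-125a-5p, miR-125b-5p and miR-351-5p in the counts that carry the miR-125 seed, as stacked bars for each library. MiR-125a-5p takes 11.6% to 18.6% in the 3 neonatal libraries and 66.9% to 76.6% in the 4 adult libraries.

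MiRNAs with the most similar profiles were sought among the tested set by the root mean square difference of log2 CPM, each centred on its own mean, over the 7 libraries. The nearest to miR-99b-5p was its cluster partner miR-125a-5p (0.36), then miR-674-3p (0.42) and miR-150-3p (0.43). The nearest to miR-125a-5p were miR-23a-3p (0.34), miR-99b-5p (0.36) and miR-15b-3p (0.37). These distances describe the 7 libraries and share their depth and scaling.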

How the data were processed

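RNA of sorted CD8+ T cells was made into libraries with the Illumina TruSeq small RNA kit, per the labels' protocols. The authors deposited estimated counts for each mature arm and precursor (2128 lines, 1978 mature names, 85 on more than 1 line), with no aligner or counter given in the sources used here and build mm10 per the submitters' processing notes. The miR-125b-5p value was split evenly over its 2 lines, and 84.0% of nonzero sums lay within 0.02 of a whole number. Counts were summed per mature name and rounded to whole numbers. All 5 members matched RefSeq's miRNA table.

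Testing covered 288 miRNAs, those reaching 10 CPM in 2 or more of the 7 libraries, in edgeR 4.0.16 (R 4.3.3) with TMM factors, robust quasi-likelihood dispersions and Benjamini-Hochberg adjustment over all 288 at 0.05. Averages came from an additive model of age and subset, the other comparisons from a model of the 4 groups, whose shared spread the single neonatal TN library borrows. Standard errors (SE) belong to the fitted log2 changes. The procedure was also run on simulated counts drawn with the spread estimated from these libraries, and no result above rests on that run. Named miRNAs were the members, the arms and let-7 partners of their clusters, those sharing a seed, the let-7 guide arms and, for each tested member, the 3 nearest profiles. The ratio of miR-99b-5p to miR-125a-5p was added after its values were seen. The members and lists were chosen with earlier results of these data known.

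Also run were RLE factors, library totals and upper quartile factors as scaling, no filter, DESeq2 1.42.0, the replicate number as a block, the largest line per name, and each library left out. Exact permutation used scipy 1.17.1, and figures matplotlib 3.10.9.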

Additional observations from a re-analysis of the deposited data

Results flagged for a closer look

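By the edgeR test of the interaction, the gap between VM and TN cells differed with age past the threshold for miR-125a-5p and its cluster neighbour let-7e-5p. For miR-125a-5p the log2 fold change of VM over TN cells was -0.22 in neonatal and -1.72 in adult cells, a difference of 1.5 (adjusted p = 0.0323, and 3.69e-04 to 0.155 over the alternatives). For let-7e-5p it was 0.67 in neonatal and -1.10 in adult cells, a difference of 1.77 (adjusted p = 0.0438, and 0.00363 to 0.14 over the alternatives). For miR-99b-5p the log2 fold change of VM over TN cells was -0.41 in neonatal and -1.97 in adult cells. That difference, 1.56, was as large as for miR-125a-5p and narrowly did not pass (edgeR adjusted p = 0.0518). It passed with the other scalings, no filter, DESeq2 and the largest line per name, and not with the replicate block. Nor did it pass without either neonatal VM or either adult TN replicate. The estimate for miR-99b-5p was 1.41 to 1.88 over the libraries left out in turn. All of these differences rest on the single neonatal TN library.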

How the results depend on the processing

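Both members fell in adult VM against adult TN cells, and miR-99b-5p rose in neonatal against adult VM cells, under every alternative run. Library totals moved the median log2 change of all tested miRNAs by 0.45 for age over both subsets, 0.51 in VM and 0.37 in TN cells, by 0.16, 0.11 and 0.25 for subset over both ages, in adult and in neonatal cells, and by 0.15 for the interaction. Upper quartile factors moved it by -0.31 for age in TN cells, 0.14 for subset averaged over age, 0.40 for the interaction and 0.38 for subset in neonatal cells, and RLE factors by 0.12 for age in VM cells and 0.15 for the interaction. The split of higher against lower calls shifted with library totals to 119 and 53 for age over both subsets, 117 and 49 in VM and 106 and 38 in TN cells. For subset it shifted to 59 and 27 over both ages, 78 and 35 in adult and 21 and 14 in neonatal cells. With upper quartile factors it was 56 and 79 for age in TN cells, 58 and 25 for subset averaged over age, 18 and 12 for the interaction and 38 and 14 for subset in neonatal cells. With RLE factors the interaction gave 8 and 14. Under library totals, age over both subsets gave 1 member called, with log2 changes of 1.0 for miR-99b-5p, 0.31 for miR-125a-5p (a turned sign) and 0.35 for let-7e-5p (likewise). Subset over both ages gave 1 member called (miR-125a-5p -1.01), age in TN cells 0 (-0.71), age in VM cells 2 (0.93), and miR-125a-5p turned to 0.022 for subset in neonatal cells. Under the same scaling let-7e-5p was at -0.85 for age in TN and 1.07 in VM cells, and miR-351-5p at -0.72 for subset in neonatal cells. Levels under library totals were 77.8 CPM in neonatal VM and 24.8 CPM in adult VM for miR-99b-5p, and 111 CPM in neonatal VM, 58.4 CPM in adult VM and 179 CPM in adult TN for miR-125a-5p. Upper quartile factors gave 0 members for subset over both ages (miR-99b-5p -1.26, miR-125a-5p -1.05), and in neonatal cells 52 miRNAs, miR-125a-5p at 0.15 (a turned sign) and miR-351-5p at -0.59. Without the filter 53 miRNAs passed for subset in neonatal cells and 43 for the interaction, and DESeq2 called 38 for the interaction. In the interaction, 2 members passed with RLE factors (miR-99b-5p 1.69), library totals (1.69), upper quartile factors (1.97), no filter (1.62), DESeq2 (1.69) and the largest line per name (1.65). That last choice put miR-125a-5p at 76.7% of the miR-125 seed in adult TN cells, and miR-125b-5p at 0.0713% in neonatal TN and 0.191% in adult VM cells. The replicate 1 minus replicate 2 differences in log2 CPM were compared between groups by their correlation. The correlation was 0.138 for neonatal VM with adult VM, -0.16 for neonatal VM with adult TN and 0.0165 for adult VM with adult TN. Same-numbered libraries were therefore taken to share only a number. With the replicate block 42 miRNAs and 1 member passed for subset over both ages (miR-125a-5p -1.21, adjusted p = 0.0531), and 0 members for the interaction (miR-125a-5p 1.42, adjusted p = 0.0582, let-7e-5p 1.79, 0.0603, and miR-99b-5p 1.42, 0.0951). It changed no other call of the members or let-7e-5p. With each library left out in turn, subset over both ages gave 18 to 111 miRNAs and 0 to 2 members, with miR-99b-5p at -1.98 to -1.07 and miR-125a-5p at -1.73 to -0.95. Age over both subsets gave 0 to 1 members, with miR-99b-5p at 0.27 to 1.17, miR-125a-5p at -0.40 to 0.45 and let-7e-5p at -0.37 to 0.59, the signs of the last 2 turning without the neonatal TN library. Age in TN cells gave 83 to 179 miRNAs and 0 to 1 members (miR-125a-5p -1.32 to -1.07), subset in adult cells 23 to 142 miRNAs, and in neonatal cells 16 to 77. The interaction gave 6 to 86 miRNAs and 0 to 2 members (miR-99b-5p 1.41 to 1.88, miR-125a-5p 1.45 to 1.73). The lowest of these counts of miRNAs all came without adult TN replicate 2. The cause of these shifts was not tested. Depth limits miR-99a-5p, miR-100-5p and miR-125b-5p, and the fits without the neonatal TN library gave no value for age in TN cells, subset in neonatal cells or the interaction.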
